A study of Mus musculus with 4 samples.

Results

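The villin family and microvillus actin genes encode proteins that build the finger-like protrusions on the luminal face of gut epithelial cells. The members were Avil, Vil1, Espn, Ezr, Pls1, Eps8, Myo1a and Actb, found by matching each name or a synonym of it to the gene symbols of the array's probes. Of these 8 genes 7 had a probe, among 16390 named genes on the array. The probe for Ezr carried the older name Vil2 and that for Pls1 the older name AI427122, and Myo1a, the brush border myosin, was not matched to a probe and is not analysed here. Actb had 2 probes, and the brighter one was used.

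Gene expression was measured on 4 one-colour arrays, with 1 array for each group of sorted mouse cells. The study set cells with Dclk1, a microtubule-linked kinase used as a tuft cell marker, against cells without it. Dclk1+ tumor cells came from the intestinal tumors of 7 pooled Dclk1CreERT2/+; ApcMin/+ mice aged over 16 weeks, and Dclk1- tumor cells from 1 such mouse aged 17 weeks. Dclk1+ normal cells came from the small intestines of 2 pooled Dclk1CreERT2/+ mice and Dclk1- normal cells from 1 such mouse, all aged 26 weeks. All the mice were male, and all carried an allele that places an inducible Cre recombinase at Dclk1. ApcMin is a truncating allele of the Wnt pathway brake Apc that starts intestinal adenomas. The labels' protocol gives the GFP gate for Dclk1+ tumor cells, and no gate for the other samples is given in the sources used here. Tumor and normal samples differed in the ApcMin allele, in age and in the number of mice, so these cannot be told apart. Within each tissue the Dclk1+ and Dclk1- samples differed in the number of mice, and in tumor also in the stated age. These cannot be told apart from the sort either.

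Microvilli are supported by a core of parallel actin filaments. In enterocytes villin, plastin 1 and espin bundle that core, ezrin ties it to the membrane, myosin 1a links it to the membrane along the sides, and EPS8 sits at the tip. Tuft cells bear a tuft of long, thick microvilli whose actin rootlets reach deep into the cell, and advillin, a close relative of villin, is among the proteins known to mark them.

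With 1 array per group there was no test, no spread between animals and no p-value, and each difference below compares 2 arrays. Levels are normalized signals on the log2 scale, with a background offset that compresses the differences of dim genes. A difference of 1 on that scale is 2-fold, and genes at least 2-fold apart were counted. A probe was above background where its spot lay over 2 SD above the mean of the blanks on its array. Between 63.3% and 70.9% of the 23473 probes were above background. Levels of different probes cannot be set against each other. In these sorted samples fewer cells of a type and less RNA per cell cannot be told apart.

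The sorted samples were checked against tuft cell markers. In tumor 11 of 17 measured tuft markers had a 2-fold or larger excess in Dclk1+ over Dclk1- cells and 0 were lower. Of all genes 1.77% were higher and 2.14% lower there. In normal epithelium 15 of 18 were higher and 0 lower, beside 5.66% of all genes higher and 5.92% lower. Trpm5, a taste pathway ion channel, had a level of 10.93 in Dclk1+ against 6.05 in Dclk1- tumor cells. In normal epithelium its level was 12.98 in Dclk1+ against 6.77 in Dclk1- cells. The level of Dclk1 was 6.64 in Dclk1+ tumor cells and 5.95 in Dclk1- tumor cells, and 9.01 in Dclk1+ normal cells and 7.60 in Dclk1- normal cells. Within each tissue the order matched the labels, but the Dclk1- normal sample had a higher Dclk1 signal than the Dclk1+ tumor sample.

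**Figure D1:**
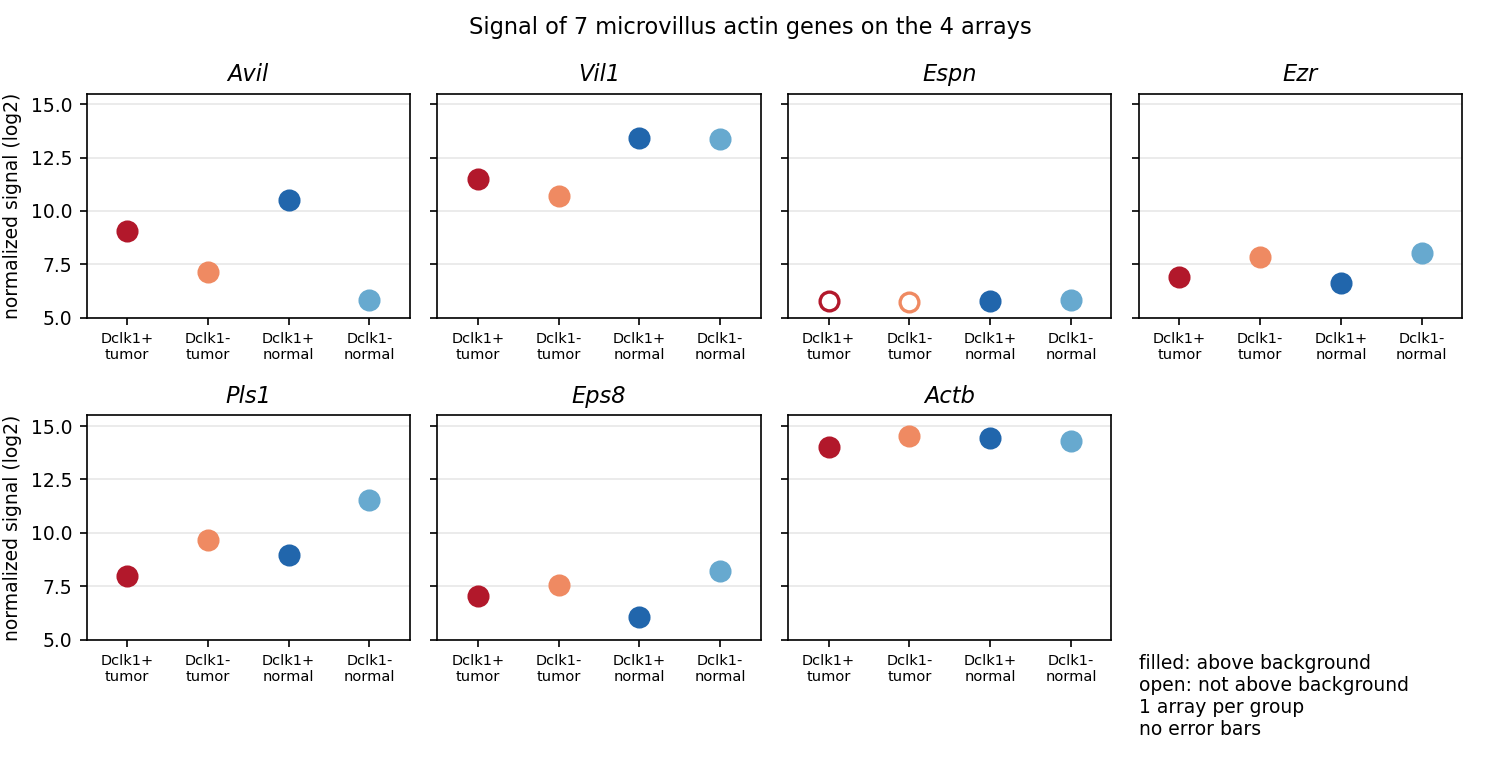
Normalized signal (log2, vertical axis) of the 7 measured members on the 4 arrays, 1 point per array and 1 panel per gene; open points are not above background. Avil was at 9.08 and 10.50 in the Dclk1+ samples of tumor and normal and at 7.13 and 5.82 in the Dclk1- samples, while Vil1 separated tumor from normal. Panels show different probes, so heights compare within a panel only.

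Advillin and villin, the closest relatives among the members, had different patterns across the 4 samples. The start regions of their genes are shown because they are the 2 villin family genes among the 8 members. Each is RefSeq's window of 300 bases around the start in GRCm38.p6, on the plus strand. The Avil window is chr10:127000459-127000758 and the Vil1 window is chr1:74409134-74409433. Capitals mark motifs found by a letter search on both strands.
Avil: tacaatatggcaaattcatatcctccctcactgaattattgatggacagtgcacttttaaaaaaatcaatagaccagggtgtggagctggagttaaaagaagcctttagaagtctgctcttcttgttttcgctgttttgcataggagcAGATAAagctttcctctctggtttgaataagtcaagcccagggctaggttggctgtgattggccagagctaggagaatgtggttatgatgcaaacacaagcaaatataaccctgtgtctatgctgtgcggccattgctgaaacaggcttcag
Vil1: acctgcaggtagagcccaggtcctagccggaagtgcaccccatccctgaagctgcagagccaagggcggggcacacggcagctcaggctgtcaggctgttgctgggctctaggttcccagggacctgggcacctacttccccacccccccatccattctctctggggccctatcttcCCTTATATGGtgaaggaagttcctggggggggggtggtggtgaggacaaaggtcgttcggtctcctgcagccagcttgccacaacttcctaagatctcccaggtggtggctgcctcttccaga

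The Vil1 capitals, CCTTATATGG at positions -73 to -64 from the start, match the CArG box on either strand, the element bound by serum response factor in many actin cytoskeleton genes. A CArG box stood in 1.63% of 32851 start regions of this length. The Avil capitals are the GATA motif AGATAA at positions -102 to -97, which stood in 11.2% of them. The other motifs searched, TATAAA (in 13.6% of start regions), the octamer ATGCAAAT (1.74%), the HNF1 motif GTTAAT (7.1%) and the HNF4 motif CAAAGTCCA (0.475%), had no match in either window. None of the 6 motifs matched in the start regions of Espn, Ezr, Pls1 and Myo1a that the table holds. Eps8 and Actb were not in the table. A match describes letters only. The Avil window was also poorer in G and C, at 43.0%, than the Vil1 window at 61.7%, against a median of 52.7% over all start regions.

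Avil encodes advillin, which caps, severs and bundles actin filaments. Its signal was 9.08 in Dclk1+ tumor cells and 7.13 in Dclk1- tumor cells. In normal epithelium it was 10.50 in Dclk1+ cells and 5.82 in Dclk1- cells. The Avil level was highest in Dclk1+ normal cells, then in Dclk1+ tumor, then in Dclk1- tumor and lowest in Dclk1- normal cells, and no spread is known for any step. The lowest was only just above background, with a spot intensity of 25.7 against a limit of 23.7. The Dclk1+ sample was 3.88-fold higher than its Dclk1- counterpart in tumor and 25.6-fold higher in normal. The log2 differences were 1.95 in tumor and 4.68 in normal, and 0.476% and 0.132% of all genes had a higher one. The difference in normal depended on the background correction and reached 8.55 with plain subtraction and 8.84 in the deposited values.

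Vil1 encodes villin, the founding member of the family and a standard marker of the intestinal brush border. Its signal was 11.48 in Dclk1+ and 10.72 in Dclk1- tumor cells. It was 13.40 in Dclk1+ and 13.36 in Dclk1- normal cells, so both normal samples were above both tumor samples. The Dclk1+ minus Dclk1- difference was 0.76 in tumor and 0.05 in normal. Vil1 was therefore under 2-fold apart in either pair, although the deposited values gave 1.13 in tumor. In tumor 3.42% of all genes had a higher difference than Vil1, and in normal 41.3% had.

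The gap between these relatives was taken within each pair of arrays, where an array-wide scaling factor cancels. The Avil difference exceeded that of Vil1 by 1.19 in tumor and by 4.64 in normal, which is 2.28-fold and 24.9-fold. With the local background subtracted the values were 0.86 and 3.49, and with plain subtraction the value in normal was 8.50.

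Among the other members, Pls1, Ezr and Eps8 had the higher signal in Dclk1- cells of both tissues. Pls1 encodes plastin 1, also called fimbrin, a bundler of the microvillus core. Its level was 7.96 in Dclk1+ and 9.66 in Dclk1- tumor cells. In normal epithelium it was 8.95 in Dclk1+ and 11.54 in Dclk1- cells. The lowest Dclk1- sample was above the highest Dclk1+ sample. The differences of -1.70 in tumor and -2.59 in normal correspond to 3.25-fold and 6.03-fold lower signals in Dclk1+ cells. Only 0.476% of genes had a lower difference in tumor, and 1.32% had in normal.

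Ezr encodes ezrin, the linker between actin and the apical membrane. Tumor levels were 6.92 in Dclk1+ and 7.86 in Dclk1- cells, and normal levels were 6.63 in Dclk1+ and 8.02 in Dclk1- cells. Both Dclk1+ samples were below both Dclk1- samples, by 0.94 in tumor (1.92-fold) and 1.39 in normal (2.61-fold). The difference in tumor passed 2-fold under 5 of the 7 alternative settings, where its largest size was 1.39.

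Eps8 encodes a protein that caps and bundles actin at the microvillus tip. In tumor it gave 7.04 in Dclk1+ and 7.55 in Dclk1- cells. In normal epithelium it gave 6.07 in Dclk1+ cells, a spot intensity of 33.3 against a limit of 22.2, and 8.19 in Dclk1- cells. The difference was -0.51 in tumor, where it turned to 0.10 with the local background subtracted, and -2.12 in normal, where the Dclk1+ sample was 4.34-fold lower. Plain subtraction put the normal difference at -4.04.

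Espn encodes espin, an actin bundler of brush borders and of sensory cell protrusions. Its probe was not above background in either tumor sample, at 5.76 in Dclk1+ and 5.73 in Dclk1- cells. It was barely above it in the normal samples, at 5.80 in Dclk1+ and 5.83 in Dclk1- cells. The array therefore gave no usable comparison for espin.

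Actb encodes cytoplasmic beta-actin, the building block of the filaments. The brighter probe gave 14.02 in Dclk1+ and 14.54 in Dclk1- tumor cells, and 14.45 in Dclk1+ and 14.30 in Dclk1- normal cells. Its differences of -0.52 in tumor and 0.15 in normal were under 2-fold, and with the local background subtracted they were 0.25 and 1.36. The dimmer probe gave 9.03 in Dclk1+ and 8.70 in Dclk1- tumor cells, and 8.84 in Dclk1+ and 9.97 in Dclk1- normal cells. Its differences of 0.33 and -1.13 had the opposite sign to those of the brighter probe in both tissues, so no direction is given for Actb. Between tumor and normal the probes also differed in sign, with -0.43 and 0.20 in Dclk1+ cells and 0.25 and -1.27 in Dclk1- cells for the brighter and the dimmer probe.

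**Figure D2:**
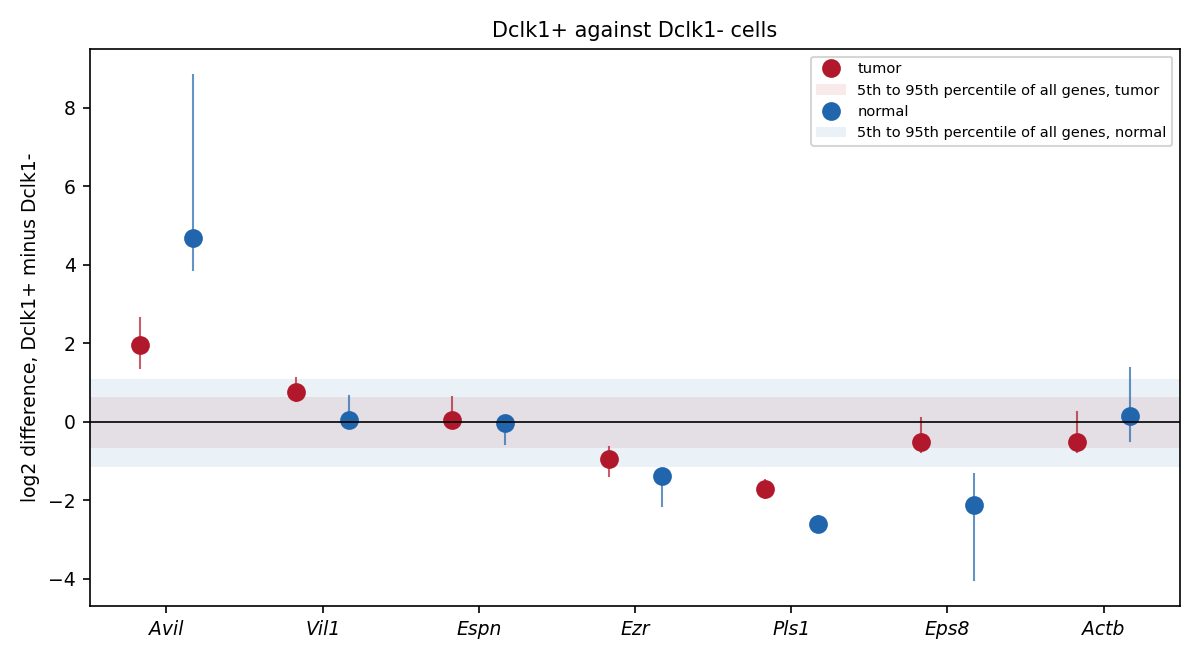
Dclk1+ minus Dclk1- log2 difference (vertical axis) of the 7 measured members in tumor and in normal; points are the values reported, vertical lines span the 7 alternative settings and shaded bands hold the 5th to 95th percentile of all genes. Avil stood at 1.95 and 4.68 above the bands, and Pls1 at -1.70 and -2.59 below them, in tumor and normal. Espn was not above background in tumor.

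Counted together, 1 of 6 members above background in the tumor pair had a Dclk1+ signal at least 2-fold higher (Avil), where 1.77% of 12197 genes did. For 1 member it was at least 2-fold lower (Pls1), where 2.14% of genes were. In the normal pair 1 of 7 members was higher (Avil), where 5.66% of 12844 genes were, and 3 were lower (Ezr, Pls1 and Eps8), where 5.92% were. The median difference of the members was -0.52 in tumor and -0.04 in normal, against 0.01 over all genes in each pair. The normal median was the value of Espn, which gave no usable comparison. The tumor median left Espn out and lay between Eps8 and Actb, and for Actb no direction is given. The 2 medians therefore say little about the members as a group. Enterocyte markers lay on the same side as Pls1, Ezr and Eps8, and so did markers of other epithelial cell types. In normal 6 of 7 goblet, 5 of 5 Paneth and 8 of 10 enteroendocrine markers were 2-fold lower in Dclk1+ cells and 0 higher. Their medians were -5.36, -2.57 and -2.81. In tumor 4 of 7 goblet, 4 of 5 Paneth and 2 of 9 enteroendocrine markers were lower, and 1 enteroendocrine marker was higher. In tumor 5 of 11 enterocyte markers were lower in Dclk1+ cells by 2-fold or more and 0 higher, with a summed signal of 13500 in Dclk1+ and 15614 in Dclk1- cells. In normal 7 of 13 were lower and 1 was higher, Fabp1, with a summed signal of 39438 in Dclk1+ and 48258 in Dclk1- cells. Fabp1 made up most of the sums in Dclk1+ cells, at a level of 13.46 in tumor and 15.18 in normal. The median enterocyte marker difference was -0.88 in tumor and -2.38 in normal. Of the 13, Treh and Cyp3a11 were not above background in either tumor sample, and Cyp3a11 was not in Dclk1+ normal cells. The part of enterocytes or of the other cell types in the member differences was not tested.

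The question of whether the Dclk1+ pattern is altered in tumors was addressed by the change of the Dclk1+ minus Dclk1- difference between tissues. For Avil it was smaller in tumor by 2.73 on the log2 scale, 6.62-fold, and 0.149% of 13465 genes had a more negative change. For Eps8 it was less negative in tumor by 1.61, or 3.06-fold. Both sizes depended on the background correction. The Avil change was -6.06 with plain subtraction and -6.21 in the deposited values, and that of Eps8 was 3.27 and 3.23. These were the 2 members past 2-fold, where 4.43% of all genes were more positive and 4.42% more negative in tumor. Pls1 changed by 0.89, Vil1 by 0.72, Ezr by 0.45 and Actb by -0.67. None of these changes could be tested.

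**Figure D3:**
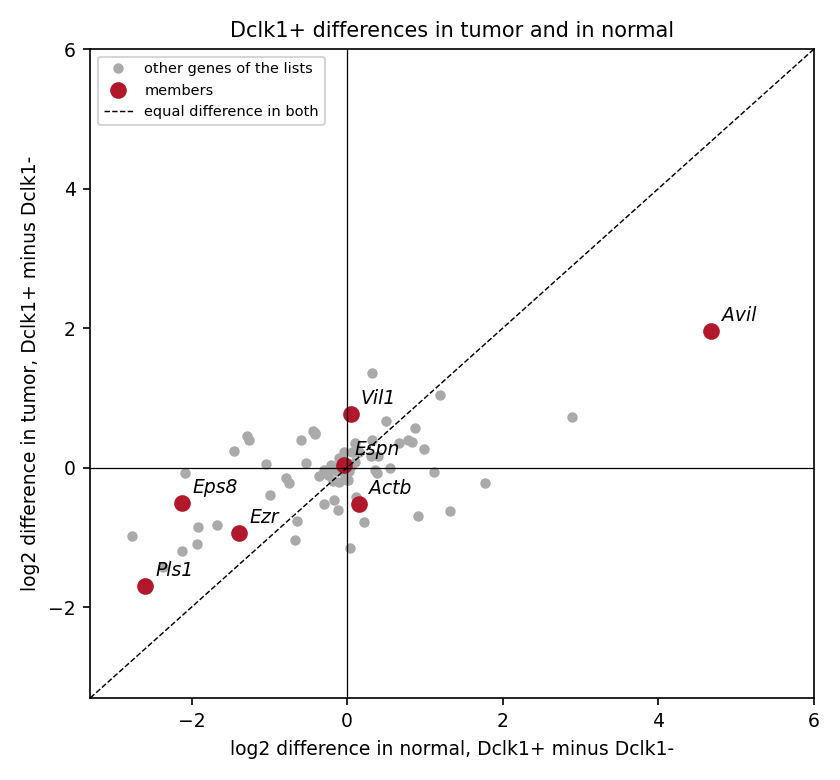
Dclk1+ minus Dclk1- log2 difference in tumor (vertical axis) against that in normal (horizontal axis) for the 7 measured members (red, named) and the other genes of the actin and microvillus lists (grey); the dashed line marks equal differences. Avil lies below the line at 1.95 against 4.68, and Eps8, Ezr and Pls1 lie above it on the lower left.

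Set against normal epithelium, tumor samples had lower Vil1 and Pls1 signals. Vil1 was lower in tumor by 1.92 in Dclk1+ cells and by 2.64 in Dclk1- cells, which is 3.78-fold and 6.23-fold. In Dclk1+ cells 0.497% of genes had a lower difference, and in Dclk1- cells 0.454% had. Pls1 was lower in tumor by 0.99 in Dclk1+ cells and by 1.89 in Dclk1- cells, and the first of these passed 2-fold under 6 of the 7 alternatives. Beside these, 1 of 12 enterocyte markers was 2-fold lower in Dclk1+ tumor cells, Fabp1, where 4.2% of all genes were. The summed signal was 13555 in tumor and 39384 in normal, most of it from Fabp1, and the median marker difference was -0.14. In Dclk1- cells 7 of 13 were lower, where 5.27% of all genes were. There the summed signal was 15723 in tumor and 48258 in normal, with a median marker difference of -1.59. In Dclk1- cells 4 of 7 goblet and 9 of 10 enteroendocrine markers were also 2-fold lower in tumor and 0 higher. Of 5 Paneth markers 2 were higher there and 0 lower. In Dclk1+ cells 3 of 7 goblet and 3 of 5 Paneth markers were higher in tumor and 0 lower. Of 9 enteroendocrine markers 1 was higher there and 1 lower. The part of enterocytes or of the other cell types in the Vil1 and Pls1 differences was not tested.

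Avil ran in opposite directions in the 2 cell fractions. It was 2.68-fold lower in Dclk1+ tumor cells than in Dclk1+ normal cells (-1.42) and 2.47-fold higher in Dclk1- tumor cells than in Dclk1- normal cells (1.31). The second value was 4.54 with plain subtraction and 4.25 in the deposited values, where the normal sample was near background. In the Dclk1+ fraction 10 of 18 tuft markers were 2-fold lower in tumor and 1 was higher, beside 4.2% and 4.27% of all genes. Their summed signal was 19398 in tumor and 53842 in normal. In the Dclk1- fraction 1 of 15 measured tuft markers, Ptgs1, was at least 2-fold higher in tumor and 1, Dclk1, was lower. Of all genes 5.84% were higher and 5.27% lower there. The tuft marker sums in that fraction were 1160.3 in tumor and 1153 in normal. The part of tuft cell numbers in the Avil differences was not tested. Ezr differed by 0.29 in Dclk1+ and -0.15 in Dclk1- cells. Eps8 was at 0.97 in Dclk1+ cells, with 0.19 to 2.44 over the alternatives, and at -0.64 in Dclk1- cells.

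Of 7 members above background in the Dclk1+ pair, 0 were at least 2-fold higher in tumor, where 4.27% of 12869 genes were. Avil and Vil1, 2 of the 7, were lower, where 4.2% of genes were. In the Dclk1- pair 1 of 7 was higher (Avil), where 5.84% of 12340 genes were, and 2 were lower (Vil1 and Pls1), where 5.27% were. The median of the members was -0.43 in Dclk1+ and -0.15 in Dclk1- cells, against -0.03 and -0.02 over all genes. The first was the value of the brighter Actb probe, whose sign the dimmer probe did not share. The second was the value of Ezr. No shift of the members as a group is read from these medians. Each tumor against normal comparison shares its arrays with the Dclk1+ against Dclk1- comparisons.

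**Figure D4:**
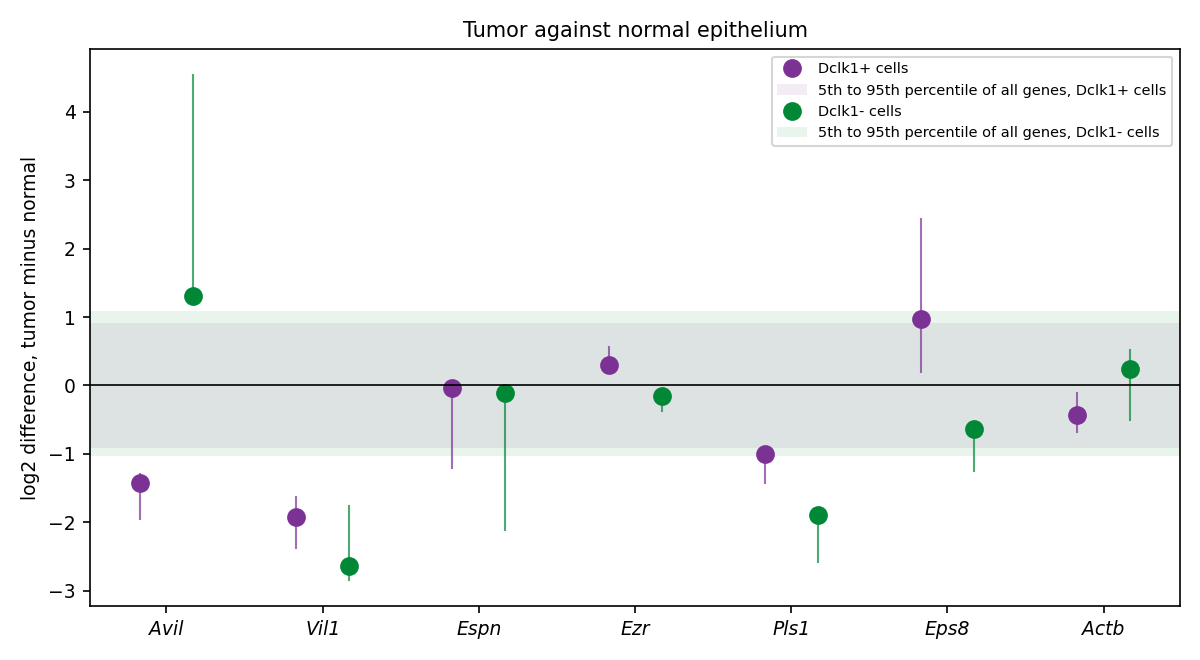
Tumor minus normal log2 difference (vertical axis) of the 7 measured members in Dclk1+ and in Dclk1- cells; points are the values reported, vertical lines span the 7 alternative settings and shaded bands hold the 5th to 95th percentile of all genes. Vil1 was below the bands at -1.92 and -2.64, and Avil was at -1.42 in Dclk1+ and 1.31 in Dclk1- cells.

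The wider villin and gelsolin superfamily has 8 genes, all with a probe. Among the 8 in tumor, Avil alone passed 2-fold higher in Dclk1+ cells and 0 passed 2-fold lower, beside 1.77% and 2.14% of all genes. Scin, the actin severing protein scinderin, stood at -0.99, with 5.86 in Dclk1+ and 6.84 in Dclk1- cells. In normal epithelium Avil and Capg were higher and Scin and Gsn lower among 7 tested genes, beside 5.66% of all genes higher and 5.92% lower. Scin was at 5.97 in Dclk1+ against 8.73 in Dclk1- normal cells (-2.77). Gsn, which encodes gelsolin, was at 9.13 in Dclk1+ against 10.80 in Dclk1- cells (-1.67). Capg, a filament capper also made by macrophages, was at 9.54 in Dclk1+ against 7.77 in Dclk1- cells (1.77). Flii and Svil differed by 0.67 and 0.31. The family median was -0.00 in tumor and 0.31 in normal, against 0.01 over all genes in each. In the Dclk1- fraction Scin was 3.71-fold and Gsn 2.39-fold lower in tumor than in normal, and Gsn stood at -0.66 there with the local background subtracted.

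Among 8 tested actin bundlers in each tissue, Pls1 was the 1 gene with Dclk1+ and Dclk1- cells 2-fold apart, on the lower side where 2.14% of all genes were in tumor and 5.92% in normal. The other plastins, Lcp1 and Pls3, differed by 0.01 and -0.04 in normal, where Pls3 was not above background, and by -0.18 and 0.03 in tumor. Espnl was not above background on any array. Actn4 was at -0.75 and Misp at -0.79 in normal. Misp, a bundler of actin rootlets, was 2.18-fold lower in Dclk1- tumor than in Dclk1- normal cells, a difference lost with the local background subtracted.

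The ezrin group contained scaffolds on the same side as Ezr. In normal epithelium 4 of its 11 tested genes, Ezr included, had a 2-fold lower signal in Dclk1+ cells and 1 had a higher one, beside 5.92% of all genes lower and 5.66% higher. Pdzd3, a PDZ scaffold, was at 6.10 in Dclk1+ against 8.47 in Dclk1- cells (-2.37). Pdzk1, another PDZ scaffold of the brush border, was at 5.94 against 8.03 in Dclk1- cells (-2.09). Slc9a3r1, which encodes the ezrin-binding scaffold NHERF1, was at 10.04 in Dclk1+ against 11.50 in Dclk1- cells (-1.45). Slk, a kinase that phosphorylates ezrin, was the higher gene, at 9.15 against 8.02 in Dclk1- cells (1.12), and its difference was 0.57 with the local background subtracted. In tumor 1 of 12 was lower, beside 2.14% of all genes, namely Pdzd3, at 5.90 in Dclk1+ against 7.32 in Dclk1- cells, and Slc9a3r1 differed by 0.24. The ezrin relatives Rdx and Msn were dim, and Msn was not above background on any array.

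In the Dclk1- fraction these 3 scaffolds were lower in tumor than in normal. Slc9a3r1 was 5.24-fold lower, Pdzk1 4.11-fold and Pdzd3 2.22-fold, 3 of 11 tested genes beside 5.27% of all genes. Pdzk1 was dim in Dclk1- tumor cells, at 5.99, so the size of its difference depends on the background offset. With the local background subtracted Slc9a3r1 stood at -0.86 and Pdzd3 at -0.51. In the Dclk1+ fraction 0 of 11 genes were 2-fold apart between tumor and normal, beside 4.27% of all genes higher and 4.2% lower.

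The tip and elongation group was led by Twf2, which encodes twinfilin 2, a capping protein of actin filament ends. Its tumor levels were 10.11 in Dclk1+ and 9.38 in Dclk1- cells, and its normal levels 9.96 in Dclk1+ and 7.07 in Dclk1- cells. Its Dclk1+ difference of 2.89 in normal made it 7.40-fold higher, and in tumor the difference was 0.73. Eps8l2, a relative of Eps8, was at 7.05 in Dclk1+ against 8.31 in Dclk1- normal cells (-1.26), while Eps8l1 was at 0.87. The Eps8l2 value shrank to -0.33 with the local background subtracted. In normal 1 of 11 was higher and 2 were lower, Eps8 and Eps8l2, beside 5.66% of all genes higher and 5.92% lower. In tumor 0 of 9 were 2-fold apart, beside 1.77% and 2.14%.

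Tumor and normal samples also differed in Clrn3, which was 2.08-fold lower in Dclk1+ and 3.15-fold lower in Dclk1- tumor cells. Twf2 was 4.96-fold higher and Eps8l2 2.97-fold lower in Dclk1- tumor cells than in Dclk1- normal cells. The Clrn3 and Eps8l2 differences fell under 2-fold with the local background subtracted.

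Of the intermicrovillar adhesion complex, which links neighbouring tips, Calml4 was the 1 of 4 genes with a 2-fold higher Dclk1+ signal, beside 1.77% of all genes in tumor and 5.66% in normal. This calmodulin-like light chain of Myo7b had levels of 11.99 in Dclk1+ and 10.95 in Dclk1- tumor cells, and of 13.42 in Dclk1+ and 12.22 in Dclk1- normal cells. It was thus higher in Dclk1+ cells by 1.04 in tumor and 1.20 in normal. The tumor value fell under 2-fold with the local background subtracted and with median or 75th percentile scaling, with a lowest value of 0.75. Its partner myosin Myo7b differed by 0.48 and -0.41, Ush1c by 0.23 and 0.06, and Anks4b by 0.23 and -0.04. Calml4 was also lower in tumor than in normal, 2.70-fold in Dclk1+ and 2.41-fold in Dclk1- cells. Local background subtraction put the second at -0.76.

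Of 13 tested myosins in tumor, 1 was 2-fold higher in Dclk1+ cells and 0 were lower, beside 1.77% and 2.14% of all genes. It was Myo15b, an unconventional myosin, at 11.99 in Dclk1+ against 10.64 in Dclk1- cells. In normal 1 of 12 was higher and 1 lower, beside 5.66% and 5.92% of all genes. Myo1f was higher, at 7.38 in Dclk1+ against 6.05 in Dclk1- cells, and Myo1e was lower, at 8.60 against 9.64 in Dclk1- cells. The Myo1f difference was 0.15 with the local background subtracted, and that of Myo1e was -0.90 in the deposited values. Between tissues, 1 of 12 myosins was 2-fold higher and 3 were lower in Dclk1+ tumor cells, beside 4.27% and 4.2% of all genes. In Dclk1- tumor cells 2 of 13 were higher and 3 lower, beside 5.84% and 5.27%. Myo1c was higher in tumor, by 1.66 in Dclk1+ and 2.14 in Dclk1- cells. Myo1e and Myo15b were lower in tumor, by 1.20 and 1.24 in Dclk1+ cells and by 2.29 and 2.27 in Dclk1- cells. Myo1d was also lower in Dclk1+ tumor cells, by 1.04. In Dclk1- tumor cells Myo1f was higher by 1.44 and Myo7b lower by 1.16. With the local background subtracted these 3 differences were -0.69, 0.35 and -0.46, and that of Myo15b in Dclk1+ cells was -0.72.

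Capg, Myo1f and Coro1a, which is a coronin of blood cells, are also known from myeloid cells. In the normal pair, where Coro1a differed by 0.91, 2 of 8 tested myeloid markers had a 2-fold higher signal in Dclk1+ cells. Of all genes 5.66% did, and the myeloid markers summed to 1479.3 in Dclk1+ and 863 in Dclk1- cells. In the tumor pair 3 of 8 were lower in Dclk1+ cells, beside 2.14% of all genes. The sums were 1565 and 3767 in Dclk1+ and Dclk1- cells, and Capg, Myo1f and Coro1a were at -0.22, -0.61 and -0.69. In the Dclk1- fraction 5 of 8 were higher in tumor, beside 5.84% of all genes. The sums were 3767 in tumor and 863 in normal, and Capg, Myo1f and Coro1a were higher by 1.68, 1.44 and 1.34. Itgam and Adgre1 were not above background on any array. The part of myeloid cells in these differences was not tested.

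Of 4 tested actin genes, 1 was 2-fold higher and 1 lower in tumor than in normal in each cell fraction. The shares of all genes were 4.27% higher and 4.2% lower in Dclk1+ cells, and 5.84% and 5.27% in Dclk1- cells. Acta2, smooth muscle actin, was above background only in tumor, at 7.16 in Dclk1+ and 7.78 in Dclk1- cells, which made it at least 2.64-fold and at least 4.03-fold higher in tumor than in normal. Other fibroblast and smooth muscle markers did not reach 2-fold, with 1 of 8 higher in each fraction (Acta2 itself). The list summed to 597 in Dclk1+ tumor against 461 in Dclk1+ normal cells and to 759 in Dclk1- tumor against 456 in Dclk1- normal cells. These sums include Acta2, so part of their rise is its own. The median marker difference, tumor minus normal, was 0.05 in Dclk1+ and 0.42 in Dclk1- cells. Pdgfra and Dcn, like Acta2, were above background in tumor only, and Des, Tagln and Cnn1 on no array. The part of such cells in the Acta2 signal was not tested. Acta1, skeletal muscle actin, gave 6.77 in Dclk1+ and 6.32 in Dclk1- tumor cells, and 8.09 in Dclk1+ and 9.37 in Dclk1- normal cells. It was 2.50-fold lower in Dclk1+ tumor and 8.30-fold lower in Dclk1- tumor than in the matching normal cells. The second, a difference of -3.05, was -1.68 with the local background subtracted. Actg2, enteric smooth muscle actin, differed by 0.10 in Dclk1+ and 0.20 in Dclk1- cells, and by 1.04 and 1.07 with plain subtraction. Between Dclk1+ and Dclk1- normal cells 1 of 3 tested actin genes was 2-fold apart, Acta1, lower in Dclk1+ cells (-1.28). Of all genes 5.92% were lower there, and the Acta1 value was -0.49 with the local background subtracted. In the tumor pair 0 of 4 were 2-fold apart, beside 1.77% of all genes higher and 2.14% lower. Probes of actin genes, whose sequences are much alike, can bind each other's RNA.

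In tumor 4 of 21 actin turnover genes passed 2-fold lower in Dclk1+ cells and 0 higher, namely Dstn (-1.19), Twf1 (-1.16), Coro1c (-1.09) and Capza2 (-1.04), with a list median of -0.39. Of all genes 2.14% were lower and 1.77% higher. In normal 3 of 21 were lower and 0 higher, beside 5.92% and 5.66% of all genes. These were Dstn, which encodes the actin depolymerising protein destrin (8.18 in Dclk1+ against 10.30 in Dclk1- cells), Coro1c (8.95 against 10.88 in Dclk1- cells) and Tmsb4x, which encodes the monomer-binding thymosin beta 4 (10.41 against 12.32 in Dclk1- cells). The normal median was -0.12. With the local background subtracted Capza2 was at -0.06 in tumor and Coro1c at -0.12 in normal, and in the deposited values Dstn was at -0.94 and Coro1c at -0.88 in tumor. The Arp2/3 subunits Arpc1b, Arpc2 and Arpc5, which nucleate branched filaments, differed by 0.55, 0.11 and 0.99 in normal. Arpc5 passed 2-fold higher under 4 of the 7 alternatives, up to 1.51, and Arpc1b reached 1.13 in the deposited values. Spectrins and tropomyosins of the terminal web had 0 of 6 genes 2-fold apart in tumor and 0 of 7 in normal.

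Between tissues, Tmsb4x was 4.27-fold higher in Dclk1+ tumor than in Dclk1+ normal cells. In Dclk1- cells it was higher in tumor by 1.03, which turned to -2.33 with the local background subtracted. Lower in Dclk1+ tumor cells were Arpc5 (2.61-fold), the monomer-binding profilin Pfn1 (2.47-fold), Actr3 (2.16-fold) and Tpm1 (2.47-fold). In Dclk1- cells Pfn1 was 4.91-fold, Wdr1 2.93-fold and Coro1b 2.74-fold lower in tumor, and Tmod3 was 2.38-fold higher. The Pfn1 and Actr3 differences in Dclk1+ cells, and those of Wdr1 and Coro1b in Dclk1- cells, fell under 2-fold with the local background subtracted.

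**Figure D5:**
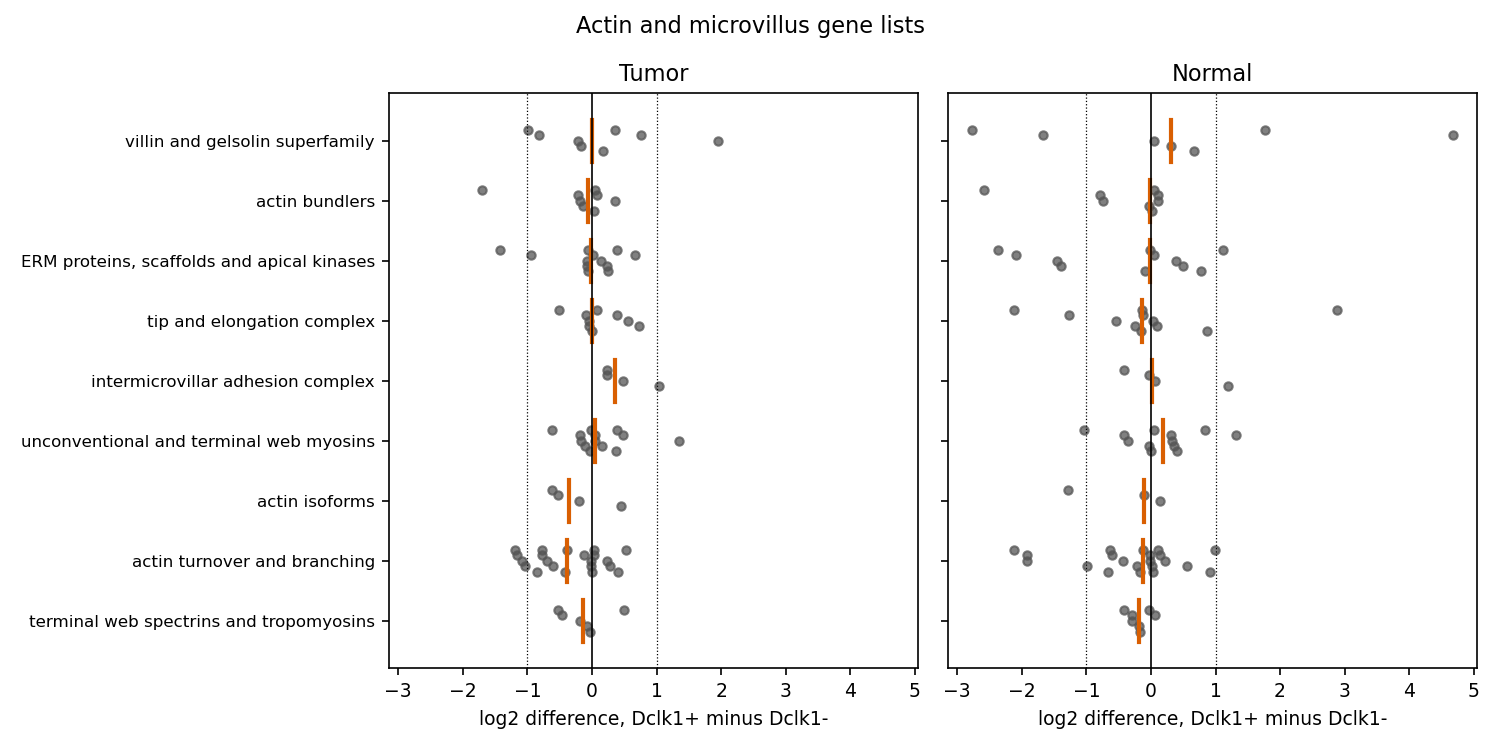
Dclk1+ minus Dclk1- log2 difference (horizontal axis) of each tested gene in 9 actin and microvillus lists, in tumor and in normal; points are genes, orange bars list medians and dotted lines 2-fold. Medians lay between -0.39 and 0.35 in tumor and between -0.19 and 0.31 in normal, with Avil and Twf2 farthest to the right in normal.

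Genes with the pattern most like that of Avil over the 4 arrays were found by the distance between centred log2 profiles among 13464 genes. They were Itih5 (distance 0.40), Dcp1b (0.43), Fes (0.47), Gmpr (0.58) and Camkk2 (0.59). Camkk2, a calcium-dependent kinase, gave 10.08 in Dclk1+ and 7.81 in Dclk1- tumor cells, and 11.78 in Dclk1+ and 6.34 in Dclk1- normal cells. The genes closest to Vil1 were Psmb9 (0.19), Parp14 (0.33), Zbp1 (0.36), Stat2 (0.41) and Tmem86a (0.44). Psmb9, an immunoproteasome subunit, gave 9.21 in Dclk1+ and 8.59 in Dclk1- tumor cells, and 11.07 in Dclk1+ and 11.25 in Dclk1- normal cells. A distance over 4 arrays describes these samples only.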

How the data were processed

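RNA was amplified and labelled with Cy5, per the labels' protocols. The deposited scanner files hold spot and local background median intensities joined from scans at several gains, per the file headers. The deposited series table holds intensities of unstated scale, found here to be linear in the spot signal, less a constant near the blank mean, with medians of 24.99 to 25.01. The authors' software is not given in the labels or headers.

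Spot intensities of 23473 probes were corrected with normexp (offset 50) in limma 3.58.1 (R 4.3.3), quantile normalized and taken as log2. The local background, which tracked the spot (correlation of logs 0.921 to 0.979), was not subtracted. Control spots and 4 flagged probe spots (3 in Dclk1- tumor, 1 in Dclk1- normal) were dropped. The platform table gave 16631 probes 1 symbol and left 6842 unnamed here; 12622 symbols were current in GRCm38.p6 RefSeq and 3947 were synonyms. Of several probes (229 genes) the brightest was used. The number of arrays limits precision. The 4 comparisons set 1 array against 1. The correction and normalization were also run on a simulated pair of arrays with known changes, built from the Dclk1- normal array. That run says nothing on variation between real arrays or animals.

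The rule for named genes was all members plus up to 5 genes per list and comparison at least 2-fold apart; other genes were named after their values were seen. The members and lists were chosen with earlier results of these data known. Alternatives were offset 16, plain subtraction of the blank mean (floor 1), local background subtraction, median or 75th percentile scaling, the deposited table, other filters on dim probes, and the mean over a gene's probes.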

Additional observations from a re-analysis of the deposited data

Results flagged for a closer look

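The brighter Actb probe gave Dclk1+ minus Dclk1- differences of opposite sign in the tissues, at -0.52 in tumor and 0.15 in normal, a gap of -0.67. The dimmer probe gave the reverse signs, 0.33 and -1.13, and with the local background subtracted both values of the brighter probe were positive, 0.25 and 1.36, so no direction is given for Actb. Espn values were also of opposite sign, at 0.04 in tumor and -0.04 in normal, a gap of 0.0728 for a probe that was not above background in tumor. These differences between tissues were not tested, since each rests on 1 array per group.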

How the results depend on the processing

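The spread between probes of a gene was 0.388 to 0.788 log2 by comparison. Answers to the comparisons that join 2 differences were held to the wider spread of both combined, and counts to a change of over 1.5 times. Across 145 recomputed answers 29 moved beyond these limits, and 0 of these changed the sign of a 2-fold difference. Among 2695 recomputed single-gene values 382 moved beyond the spread between probes for 1 comparison and 2 changed the sign of a 2-fold difference. Both were for tumor against normal in Dclk1- cells with the local background subtracted, where Tmsb4x was at -2.33 (against 1.03) and Camkk2 at -0.26 (against 1.47). No paired analysis was possible because each group has 1 sample, and for the same reason no replicate could be left out. Genes 2-fold apart between Dclk1+ and Dclk1- numbered 477 in tumor, against 979 with offset 16, 3620 with plain subtraction, 771 with the local background subtracted and 3586 in the deposited table. In normal they numbered 1488, against 5188 with plain subtraction and 5054 in the deposited table. Between tumor and normal the count was 1090 in Dclk1+ cells, against 1848, 5220 and 5237 with offset 16, plain subtraction and the deposited table, and 1371 in Dclk1- cells, against 2170, 5193 and 5413. Of the genes 2-fold apart in tumor 45.3% were higher in Dclk1+ cells, against 24.5% with median scaling and 61.9% in the deposited table; in normal it was 48.9% against 59.3% in that table. For tumor against normal it was 50.5% in Dclk1+ and 52.6% in Dclk1- cells, against 33.3% in each in that table. Of 6 tested members 4 were 2-fold apart in the deposited table, against 2, for Dclk1+ against Dclk1- in tumor. Of all genes 3586 of 12684 were 2-fold apart in that table, against 477 of 12197. For tumor against normal in Dclk1+ cells 4 of 7 members were 2-fold apart with offset 16 or plain subtraction. The deposited table gave 5 of 7, against 2 of 7. Beside these were 1848 and 5220 of 12869 genes, and 5237 of 13417 in the deposited table, against 1090 of 12869. The Avil difference minus that of Vil1 in normal was 5.93, 8.50, 3.49 and 8.18 with offset 16, plain subtraction, local background and the deposited table, against 4.64. For tumor against normal in Dclk1- cells it was 7.22 and 7.10 with plain subtraction and the deposited table, against 3.94. The change of the Dclk1+ difference in tumor was -3.71, -6.06 and -6.21 for Avil with offset 16, plain subtraction and the deposited table, against -2.73. It was 3.27 and 3.23 for Eps8 with the last 2 of these, against 1.61, and 1.19 for Espn with plain subtraction. For Actb it was 0.40 with the mean of both probes, against -0.67, and that change of sign comes from averaging in the second probe. Otherwise the cause was not tested. Scaling to the 75th percentile moved the median difference of all genes to 0.13 in tumor and 0.14 in normal, and the deposited table moved it to 0.33 and 0.24. The dim signals of Espn in all samples, of Avil in Dclk1- normal cells and of Eps8 in Dclk1+ normal cells limit what can be read from those genes. The same holds for other dim signals of the lists, such as those of Pdzk1 and Scin in Dclk1+ normal cells and of Pdzk1 in Dclk1- tumor cells.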
